A study of Mus musculus with 2 samples.

Results

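Siglecs are cell surface lectins of immune cells that bind sialic acids, the sugars that cap most glycoproteins of the body's own cells. Together with SIRPα, the CD200 receptor, TIM-3 and LAIR1 they hold myeloid cells in check. Several of these receptors carry tyrosine motifs in their cytoplasmic tails that recruit the phosphatases SHP-1 and SHP-2 when a ligand is bound. In the brain, where neurons display sialic acids, CD47 and CD200, these receptors are known as brakes on microglial uptake and inflammatory signalling. The 10 genes described here are 5 Siglec genes (Siglech, Siglece, Siglecg, Siglec1 and Cd33), the inhibitory receptor genes Sirpa, Cd200r1, Havcr2 and Lair1, and Cd47, which encodes the ligand of SIRPα. They were selected by symbol among the 53801 genes listed in each library, and all 10 were found and had at least 10 counts in both libraries.

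RNA-seq was performed on microglia sorted from the ipsilesional (left) hemisphere of Cx3cr1(CreER/wt) mice on the C57BL/6 background, 3 days after sham surgery. These mice carry an inducible Cre recombinase in place of 1 Cx3cr1 allele, have no floxed gene named in their labels, and received tamoxifen at 75 mg/kg/day for 4 days, with surgery 14 days after the first dose. The series text describes male mice of 8 to 10 weeks, whereas the methods of the study give 10 to 14 weeks and both sexes. Cells were sorted as CD11b+CD45low after exclusion of CD11c+ and Ly6G+ cells, and the sample titles say sham while the treatment label reads "none". Each of the 2 sham libraries came from 1 mouse, the libraries after stroke were not analysed here, and no contrast between conditions was therefore possible: all differences given below are between 2 mice of 1 group.

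Library 1 held 23381026 counts and library 2 held 41142609. A count of 0 allows up to 0.128 and 0.0729 counts per 1000000 counts (CPM), respectively. All 10 microglia markers were present in both libraries (together 38370.4 and 43259.5 CPM). The 14 neutrophil markers summed to 5125 and 62588 CPM, and 13 of them were past 2-fold higher in library 2 (Csf3r was not). The 6 monocyte markers summed to 683 and 3346 CPM, of which Chil3 made up 455 and 2901 CPM. Chil3 (log2 ratio 2.67) and Ly6c2 (1.74) were past 2-fold higher in library 2. The other 4 were within 2-fold (F10 0.32, Ccr2 0.23, Plac8 −0.17 and Vcan −0.67). The part of these cells in the results below was not tested. Long transcripts had lower CPM in library 2: the median log2 ratio of library 2 over library 1 was 0.17 in the 3rd decile of transcript length and −1.05 in the 10th. Over the 13445 genes counted in both libraries, the median log2 ratio was −0.26, the median size of the ratio regardless of sign was 0.60, and 31.7% of genes were past 2-fold, 25.9% lower and 5.74% higher in library 2. Between the mice, edgeR put the common biological coefficient of variation at 0.479.

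Of the 5 Siglec genes, 4 lie on chromosome 7, and the bases before their starts are shown because these relatives differed widely in level, from Siglech at the top of the 10 genes to Siglecg at the bottom. Each line gives, 5′ to 3′ on the strand of the gene, the 250 bases before the RefSeq start (GRCm38.p6). Capitals mark GAGGAA, a sequence bound by the myeloid factor PU.1, or its reverse complement TTCCTC. Shorter stretches of it, such as GGAA, are not marked.
Siglech: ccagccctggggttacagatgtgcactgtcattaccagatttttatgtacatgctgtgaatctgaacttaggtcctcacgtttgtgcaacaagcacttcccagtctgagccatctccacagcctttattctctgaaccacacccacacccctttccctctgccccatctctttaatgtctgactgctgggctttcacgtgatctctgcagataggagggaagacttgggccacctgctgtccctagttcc
Siglece: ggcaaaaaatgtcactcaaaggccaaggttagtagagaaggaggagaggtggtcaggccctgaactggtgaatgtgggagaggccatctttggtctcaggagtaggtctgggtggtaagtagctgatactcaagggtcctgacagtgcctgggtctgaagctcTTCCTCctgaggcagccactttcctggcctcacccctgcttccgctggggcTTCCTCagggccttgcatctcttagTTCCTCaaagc
Siglecg: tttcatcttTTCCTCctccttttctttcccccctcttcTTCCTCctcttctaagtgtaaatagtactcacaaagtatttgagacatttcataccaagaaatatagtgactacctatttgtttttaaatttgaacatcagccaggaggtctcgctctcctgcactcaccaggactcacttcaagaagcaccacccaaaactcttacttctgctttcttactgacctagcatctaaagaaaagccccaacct
Cd33: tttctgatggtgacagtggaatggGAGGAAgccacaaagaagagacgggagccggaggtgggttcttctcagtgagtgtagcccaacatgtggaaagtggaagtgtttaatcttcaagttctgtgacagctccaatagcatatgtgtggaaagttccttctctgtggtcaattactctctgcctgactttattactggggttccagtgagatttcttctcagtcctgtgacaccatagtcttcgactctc
The 4 regions are chr7:55767934-55768183 (plus strand), chr7:43660162-43660411 (minus strand), chr7:43407989-43408238 (plus strand, the first of 2 starts) and chr7:43533172-43533421 (minus strand). The full motif was matched 3 times before Siglece, 2 times before the first start of Siglecg and 1 time before Cd33. It was not matched before Siglech, the most abundant of the 4, where the shorter GGAA and TTCC do occur. Of the 32851 promoters in the RefSeq table, 23.3% held at least 1 match in the same 250 bases, on either strand. The second start of Siglecg, with 250 bases at chr7:43408030-43408279, had no match. The RefSeq start of Cd33 lies 11257 bases inside the gene as the count files delimit it. Havcr2 and Lair1 each held 1 match. Cd47 held none at either of its 2 starts, which lie 55121 and 55128 bases inside the gene as the files delimit it. Sirpa, Siglec1 and Cd200r1 had no entry in the table.

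Siglech was the most abundant of the 10 genes on average. It encodes Siglec-H, a lectin of microglia and plasmacytoid dendritic cells that lacks an inhibitory motif and signals through the adaptor DAP12. Siglech (chromosome 7 of GRCm38, 55768178 to 55778925) had 39275 counts in the first library and 98514 in the second, or 1679.8 and 2394 CPM (2037 ± 505, mean ± SD, n = 2 libraries). Library 2 was thus the higher, by 1.43-fold (log2 ratio 0.51, 95% counting interval 0.49 to 0.53), and 44.5% of all counted genes had a smaller ratio between the mice. Scaled for length, as counts per kilobase of merged exons with all genes of a library summing to 1000000, its level was 1412 and 1622, above the 99th percentile of counted genes in both libraries. The marker genes of plasmacytoid dendritic cells, the other cell type known for Siglech, were scarce. The 6 genes of that list summed to 15.6 and 24.4 CPM, of which Smim5 made up 1.80 and 13.6 CPM, and Klk1 had no count in either library. The part of such cells in the Siglech level was not tested. Tyrobp, which encodes DAP12, had a length-scaled level of 8170 in library 1 and 7260.0 in library 2, or 5.78 and 4.48 times that of Siglech.

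Siglece and Cd33 encode Siglecs of myeloid cells. Siglec-E carries inhibitory motifs, and CD33 is known from genetic studies of Alzheimer's disease in its human form. Siglece (chromosome 7, 43651070 to 43660161) had 4848 and 4336 counts, or 207 and 105 CPM (156 ± 72.1, SD, n = 2). It was lower in library 2 by 1.97-fold (log2 ratio −0.98, 95% counting interval −1.04 to −0.92), just within the 2-fold limit on the CPM scale. The ratio was −0.73 with TMM scaling and −0.70 with DESeq2 size factors. Neutrophils are also known to carry Siglec-E, and the part of the neutrophil RNA in library 2 was not tested. Cd33 (chromosome 7, 43524216 to 43544428) had 13294 and 22944 counts, or 569 and 558 CPM (563 ± 7.72, SD, n = 2). Of the 10 genes it differed least between the mice, with a log2 ratio of −0.03 (−0.06 to 0.00), and only 2.59% of counted genes had a smaller one. The sign of this ratio was not stable, as it was 0.22 with TMM scaling. Per length, Siglece had the higher level in library 1 (319 against 208 for Cd33) and Cd33 in library 2 (164 against 131), so the order of these 2 genes differed between the libraries.

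Siglecg and Siglec1 were the least abundant. Siglec-G is known as an inhibitory receptor of B cells that binds CD24. Siglecg (chromosome 7, 43408204 to 43418358) had 214 and 444 counts, or 9.15 CPM (95% Poisson interval 7.97 to 10.5) and 10.8 CPM (9.81 to 11.8), with a mean of 9.97 ± 1.16 (SD, n = 2). The counting interval of its log2 ratio, 0.24, ran from 0.00 to 0.48, so a difference in CPM was not detectable at this depth. The ratio depended on the scaling, at 0.49 with TMM, 0.51 with DESeq2 size factors and 0.98 relative to genes of like length and GC content. The 7 B cell markers summed to 570 and 778 CPM, of which Ighm made up 517 and 720.2 CPM. Among them, Cd79b had 52.1 and 55.4 CPM, while Pax5 had 0 counts in library 1 and 1 in library 2. The part of B cells in the Siglecg level was not tested. Of the 75-base stretches in Siglecg transcripts, 2.79% were also found in a transcript of Gm29791, the largest such share among the 10 genes.

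Siglec1 differed most between the 2 mice. It encodes sialoadhesin (CD169), a long adhesion receptor of macrophages without inhibitory motifs, known in the brain from macrophages at its borders. Siglec1 (chromosome 2, 131069220 to 131086765) had 958 counts in the first library and 182 in the second, or 41.0 CPM (95% Poisson interval 38.4 to 43.7) and 4.42 CPM (3.80 to 5.12). The level was 9.26-fold lower in library 2 (log2 ratio −3.21, 95% counting interval −3.45 to −2.98), and 98.8% of counted genes had a smaller ratio. The mean of 22.7 ± 25.8 CPM (SD, n = 2) therefore describes neither mouse. Markers of border macrophages summed to 709 and 338 CPM. Of these 7 markers, 3 were past 2-fold lower in library 2 (Mrc1, Cd163 and F13a1, with log2 ratios of −2.17 to −1.80), against 25.9% of all counted genes. The other 4 were not (Ms4a7, Cbr2, Pf4 and Lyve1, −0.41 to 0.32). The part of border macrophages in the Siglec1 difference was not tested, and in bulk libraries fewer cells of a type cannot be told apart from less RNA per cell.

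Among the 9 Siglec genes of the mouse measured here, Siglech took 69.3% of the summed length-scaled level in library 1 and 81.4% in library 2. Siglece took 15.7% and 6.56%, and Cd33 10.2% and 8.26%. Of the 4 other Siglec genes, Siglecf had length-scaled levels of 37.0 and 34.4, Mag 31.3 and 30.2, and Cd22 7.41 and 3.56, and none of these 3 was past 2-fold between the libraries. Siglec15 had 0 counts in library 1 and 1 in library 2. Sham microglia RNA of the Siglec family was thus mostly Siglech in both mice, with Siglece and Cd33 next.

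**Figure D1:**
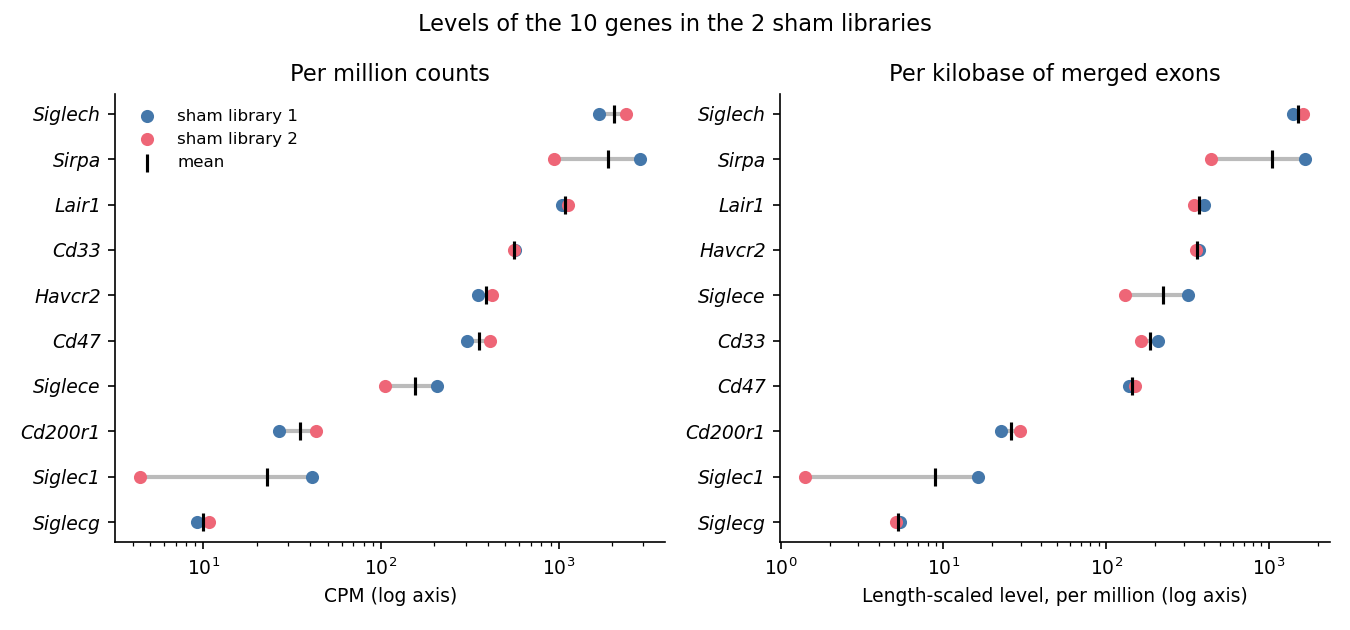
Levels of the 10 genes in sham library 1 (blue) and sham library 2 (red), with the mean (black bar), as CPM (left, log axis) and as length-scaled level summing to 1000000 (right, log axis). Cd33 lies at 569 and 558 CPM, while Siglec1 spans 41.0 to 4.42 CPM and Sirpa 2867 to 942 CPM.

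Sirpa and Cd47 encode the 2 sides of one checkpoint: SIRPα on the phagocyte binds CD47 on the cell that is not to be eaten, and myeloid cells carry both. Sirpa (chromosome 2, 129592835 to 129632228) had 67025 counts in the first library and 38763 in the second, or 2867 and 942 CPM (1904 ± 1361, SD, n = 2). The deeper library thus held fewer Sirpa counts, a level 3.04-fold lower (log2 ratio −1.61, 95% counting interval −1.62 to −1.59), and 84.6% of counted genes had a smaller ratio. Cd47 (chromosome 16, 49800533 to 49915010) had 7109 and 16918 counts, or 304 and 411 CPM (358 ± 75.8, SD, n = 2), higher in library 2 with a log2 ratio of 0.44 (0.40 to 0.48). Per length, Sirpa had 12.05 times the level of Cd47 in library 1 and 2.93 times in library 2. The RNA of the receptor thus exceeded that of its ligand in the sorted cells of both mice, by amounts that differed. Protein was not measured here. The paralogs Sirpb1a, Sirpb1b and Sirpb1c, members of the SIRP family without inhibitory motifs, were low, with length-scaled levels of 4.33 to 7.74. No 75-base stretch of Sirpa was found in a transcript of another gene.

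Lair1 and Havcr2 had similar levels per length and were close between the mice as measured, although the ratio of Lair1 was 0.92 relative to genes of like length and GC content. LAIR1 is an inhibitory receptor for collagens and for the complement protein C1q. Lair1 (chromosome 7, 4003402 to 4063204) had 24514 and 46250 counts, or 1048 and 1124 CPM (1086 ± 53.5, SD, n = 2), with a log2 ratio of 0.10 (95% counting interval 0.08 to 0.12). Havcr2, the gene of TIM-3, a checkpoint receptor of T cells and myeloid cells that binds galectin-9 (chromosome 11, 46454935 to 46481255), had 8265 and 17404 counts, or 353 and 423 CPM (388 ± 49.2, SD, n = 2). Its log2 ratio was 0.26 (0.22 to 0.30). Per length the levels were 399 and 345 for Lair1 against 369.5 and 356 for Havcr2, so the order of these 2 genes differed between the libraries. The 6 genes of the T or NK cell list summed to 1.71 and 15.8 CPM. The part of such cells in the Havcr2 level was not tested.

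Cd200r1 was the least abundant of the receptors outside the Siglec family. Its product binds CD200 and signals through Dok adaptors rather than through the usual inhibitory motif. Cd200r1 (chromosome 16, 44765736 to 44794978) had 622 and 1768 counts, or 26.6 CPM (95% Poisson interval 24.6 to 28.8) and 43.0 CPM (41.0 to 45.0), with a mean of 34.8 ± 11.6 (SD, n = 2). It was the gene with the highest ratio of library 2 over library 1 among the 10, at 1.62-fold (log2 ratio 0.69, 0.56 to 0.83), which 55.4% of counted genes did not reach in either direction. Of its paralogs, Cd200r4 had 1.54 and 2.75 CPM, and Cd200r3 and Cd200r2 had no count in library 1, with 132 and 2 counts in library 2. Cd200r3 is known from basophils and mast cells, whose 6 marker genes summed to 0.257 and 169 CPM. Their part in the Cd200r1 difference was not tested. Of all 9 paralogs of the receptors listed, 5 were counted, and Havcr1 had no count in either library. Of these 5, 1 was past 2-fold higher in library 2 (Sirpb1b, log2 ratio 1.07), against 5.74% of all counted genes, and none was lower, against 25.9%. Cd200r4 transcripts share 14 of the 3489 stretches of 75 bases in Cd200r1.

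Scaled for length, the levels ran in the order Siglech, Sirpa, Lair1, Havcr2, Siglece, Cd33, Cd47, Cd200r1, Siglec1 and Siglecg. Of the 9 pairs of neighbours in this order, 5 were separated, in that both libraries of the upper gene lay above both libraries of the lower one. The 4 pairs that were not separated were Siglech and Sirpa, Lair1 and Havcr2, Siglece and Cd33, and Siglec1 and Siglecg. Sirpa was first in library 1 and Siglech in library 2, at 1660.3 against 1412 and 439.7 against 1622. By the ratio of means, the step from Cd47 to Cd200r1 was the largest between neighbours (5.54-fold), at 6.10-fold in library 1 and 5.10-fold in library 2. In library 2 alone the step from Cd200r1 to Siglec1 was larger, at 20.7-fold, against 1.39-fold in library 1. The first 7 genes of the order were above the 92nd percentile of counted genes in both libraries, whereas Siglecg was at the 33.3rd and 44.0th percentiles and Siglec1 at the 56.5th and 20.3rd. None of the merged exons of the 10 genes overlapped an exon of another gene on either strand.

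**Figure D2:**
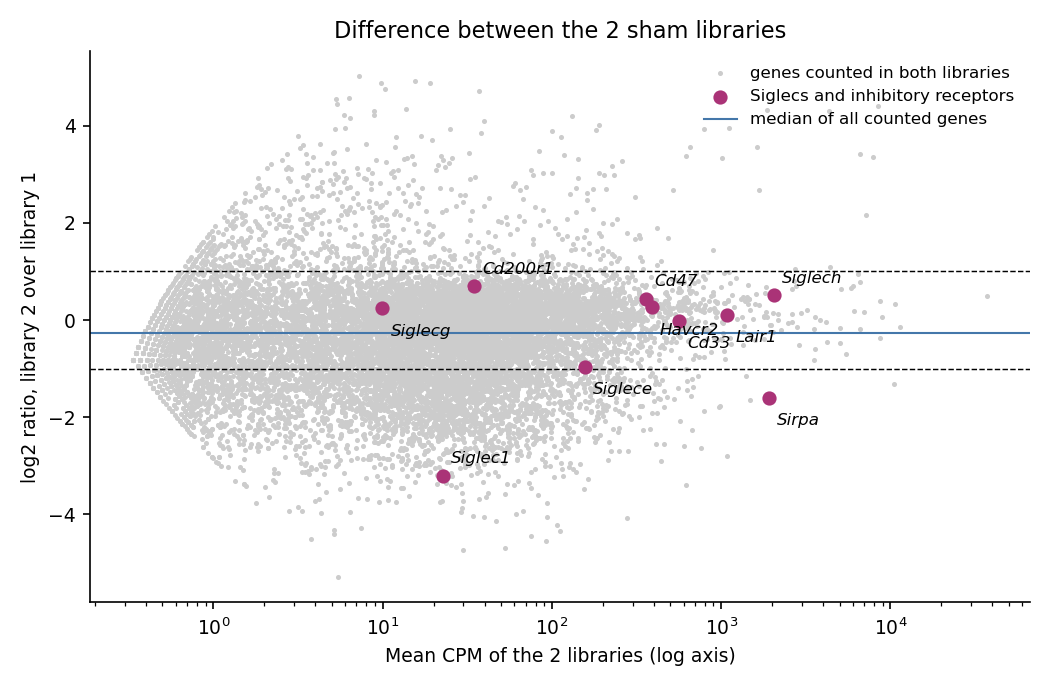
Log2 ratio of CPM in library 2 over library 1 (vertical axis) against mean CPM (horizontal, log axis) for the 13445 genes counted in both libraries (grey) and the 10 genes (purple), with 2-fold limits (dashed) and the median of all counted genes (blue, −0.26). Siglec1 at −3.21 and Sirpa at −1.61 lie outside the limits, and Siglece at −0.98 lies just inside.

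Of the 10 genes, 2 were past 2-fold between the mice, Siglec1 and Sirpa, both lower in library 2. That is a share below the 31.7% of all counted genes past 2-fold in either direction, and near the 25.9% lower in library 2. The median log2 ratio of the 10 genes was 0.17, against −0.26 for all counted genes. The values nearest the limit from inside were those of Siglece (−0.98) and Cd200r1 (0.69), and no gene was past 2-fold higher in library 2. With TMM scaling Siglece was at −0.73 and Cd200r1 at 0.94.

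Because CPM in library 2 depended on transcript length, each ratio was also given relative to the median of counted genes in the same decile of length and of GC content. Siglec1, with a longest transcript of 6387 bases and 56.7% GC, shared its bin with 101 genes whose median log2 ratio was −1.73, and its own ratio relative to them was −1.48. Sirpa, with 3982 bases and 54.2% GC, had a bin median of −0.83 and a ratio of −0.77 after adjustment, no longer past 2-fold. Siglece, with only 1849 bases, had a bin median of 0.15 and an adjusted ratio of −1.12, past 2-fold. The 2 genes past 2-fold were thus Siglec1 and Sirpa as measured and Siglec1 and Siglece after adjustment, when 22.4% of 13439 genes were past it. Siglec1, Sirpa and Siglece were lower in library 2 both as measured and after adjustment.

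**Figure D3:**
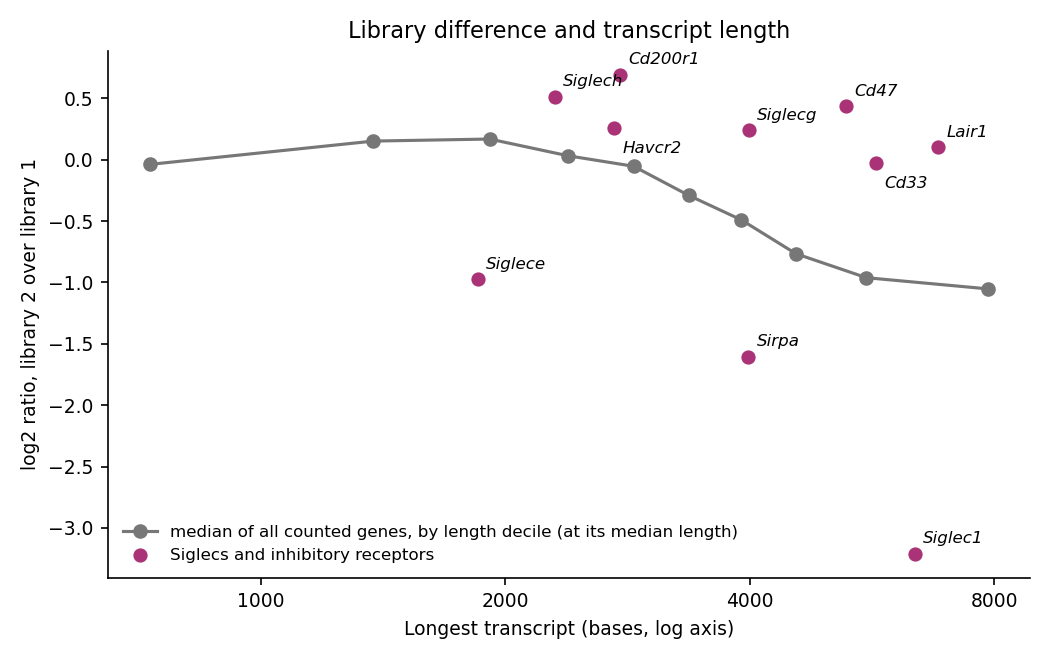
Log2 ratio of library 2 over library 1 against the length of the longest transcript (log axis) for the 10 genes (purple), with the median of all counted genes in each decile of length (grey line). The grey line descends from 0.17 in the 3rd decile to −1.05 in the 10th; Siglece, Sirpa and Siglec1 lie below it and the other 7 genes above it.

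All of the other genes lay above their bins, those with long transcripts and the shorter ones alike. Lair1 (6828 bases), Cd33 (5728 bases) and Cd47 (5250 bases) had measured ratios of 0.10, −0.03 and 0.44 in bins whose medians were −0.82, −0.52 and −0.52, and adjusted ratios of 0.92, 0.49 and 0.96. Siglecg was at 0.98 after adjustment. None of these 4 reached 2-fold with both properties adjusted, but with length alone Cd47 was at 1.40 and Lair1 at 1.15, past 2-fold higher in library 2. With GC content and the length of merged exons, the ratios were smaller: 0.53 for Cd47, 0.45 for Lair1, 0.69 for Siglecg and 0.32 for Cd33. The shorter Siglech, Havcr2 and Cd200r1 moved by less, to 0.31, 0.10 and 0.47.

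**Figure D4:**
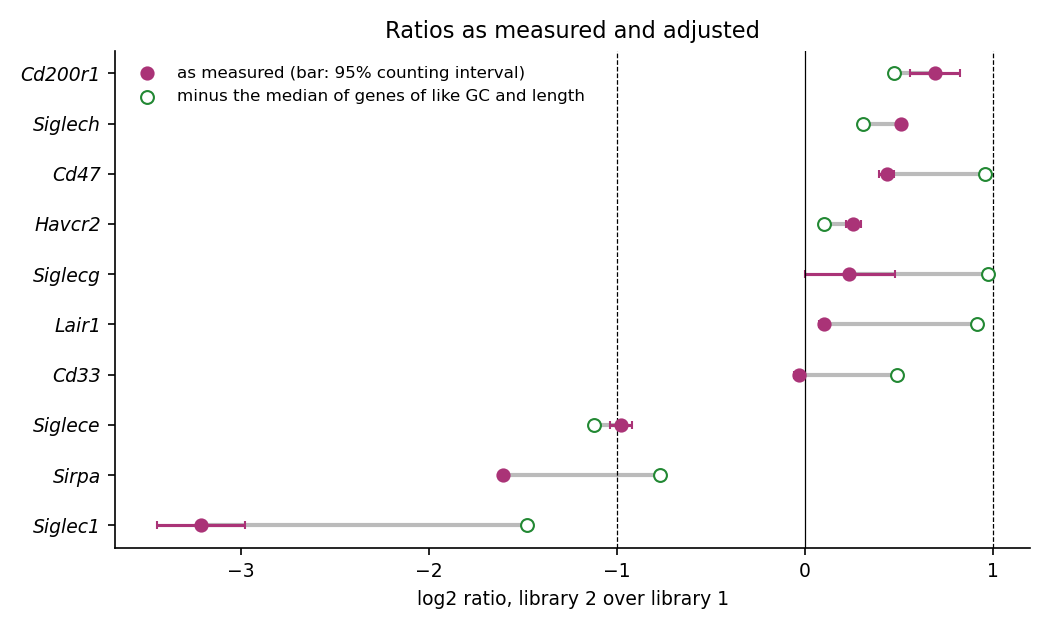
Log2 ratio of library 2 over library 1 for each of the 10 genes as measured (purple, bars give the 95% counting interval) and relative to genes of like GC content and transcript length (open green), with 2-fold limits (dashed). Sirpa moves from −1.61 to −0.77, Siglece from −0.98 to −1.12 and Siglec1 from −3.21 to −1.48.

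The wider pathway was read from 6 lists holding 80 genes, of which 69 were counted in both libraries. Of these, 10 were past 2-fold higher and 11 past 2-fold lower in library 2, and 48 were within 2-fold, with a median log2 ratio of 0.08 against −0.26 over all counted genes, of which 5.74% were past 2-fold higher and 25.9% lower.

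All 11 ligand genes were counted. The C1q subunit genes C1qb, C1qc and C1qa, whose product binds LAIR1, were the highest, with length-scaled levels of 31232 and 22761, 12968 and 10839, and 11787 and 6302 in the 2 libraries. None of the 3 was past 2-fold. Lgals9, which encodes the TIM-3 ligand galectin-9, had 949 and 951, or 2.57 and 2.67 times the level of Havcr2. Cd200 had 10 and 32 counts, or 0.43 CPM (Poisson interval 0.21 to 0.79) and 0.78 CPM (0.53 to 1.10). Per length, Cd200r1 had 61.7 and 54.8 times the level of this ligand gene, ratios that are imprecise because Cd200 had few counts. Past 2-fold higher in library 2 were 4 of the 11 ligand genes, against 5.74% of all counted genes, and none was lower, against 25.9%: Cd24a, the ligand of Siglec-G (12.6 and 187 CPM, log2 ratio 3.89), Ceacam1 (1.86), Spn (1.28) and Cd52 (1.22). These 4 were higher in the library with more neutrophil RNA, and the part of that RNA was not tested.

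Genes that act behind the receptors were all counted, 16 of 16. Tyrobp was the highest, and Ptpn6, which encodes SHP-1, had length-scaled levels of 661 and 624, 54.4 and 63.3 times those of Ptpn11, which encodes SHP-2. The kinase gene Lyn had 570 and 449. Past 2-fold lower in library 2 were 4 of the 16 genes, a share near the 25.9% of all counted genes: Inpp5d, which encodes the phosphatase SHIP1 (1113 and 233 CPM, log2 ratio −2.26), Rasa1 (−2.07), Syk (−1.51) and Bag6 (−1.40). After the length and GC adjustment these were −0.72, −1.65, −0.03 and 0.04, so Rasa1 alone of the 4 stayed past 2-fold. Fgr, a Src family kinase gene, was the one gene past 2-fold higher as measured, at 1.31. After adjustment it was at 1.66, and Skap2 (1.22) and Ptpn11 (1.22) were past 2-fold higher as well. Of all adjusted genes, 22.4% were past 2-fold in either direction, and 12.7% were past it lower in library 2.

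Of 21 genes for making, attaching and removing sialic acids, the ligand sugars of Siglecs, 19 were counted in both libraries. The sialyltransferase genes St3gal5 (length-scaled levels 282 and 259) and St3gal6 (173 and 204) were the highest, followed by the sialidase gene Neu1 (83.6 and 75.8). No gene of this list was past 2-fold higher in library 2 and 6 were past 2-fold lower, led by St3gal2 (123 and 26.0 CPM, log2 ratio −2.24). These 6 of 19 stand beside 25.9% of all counted genes that were lower. After adjustment St3gal2 was at −0.92, Casd1 (−1.27) and Neu3 (−1.31) alone of the 6 stayed past 2-fold, and St3gal1 (1.24) and Cmah (1.05) were past 2-fold higher. These adjusted values stand beside 22.4% of all genes past 2-fold in either direction after adjustment, and 12.7% past it lower in library 2. The list's median log2 ratio was −0.35 as measured and 0.22 after the length and GC adjustment, so its direction changed with the adjustment. The median of all counted genes moved as well, from −0.26 as measured to 0 after adjustment.

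Of 19 further inhibitory receptor genes of immune cells, 15 were counted. Vsir, which encodes the checkpoint protein VISTA, was the highest, at 1434 and 1111 per length, against 1412 and 1622 for Siglech. Fcgr2b, the inhibitory Fc receptor gene, had 427 and 198, and Cd300a had 196 and 216. Past 2-fold higher in library 2 were Clec12a (20.4 and 115 CPM, log2 ratio 2.49), Cd300lf (2.12), Pilra (1.33) and Pirb (1.04), and past 2-fold lower was Lag3 (94.0 and 25.2 CPM, −1.90). These 4 and 1 of 15 stand beside 5.74% and 25.9% of all counted genes. The 5 genes stayed past 2-fold after the length and GC adjustment, and Vsir (1.48) and Cd300a (1.38) were then past 2-fold higher as well. After that adjustment 22.4% of all genes were past 2-fold in either direction, and 12.7% were past it lower in library 2. Ctla4, Tigit, Cd5 and Vsig4 were under 10 counts in at least 1 library.

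**Figure D5:**
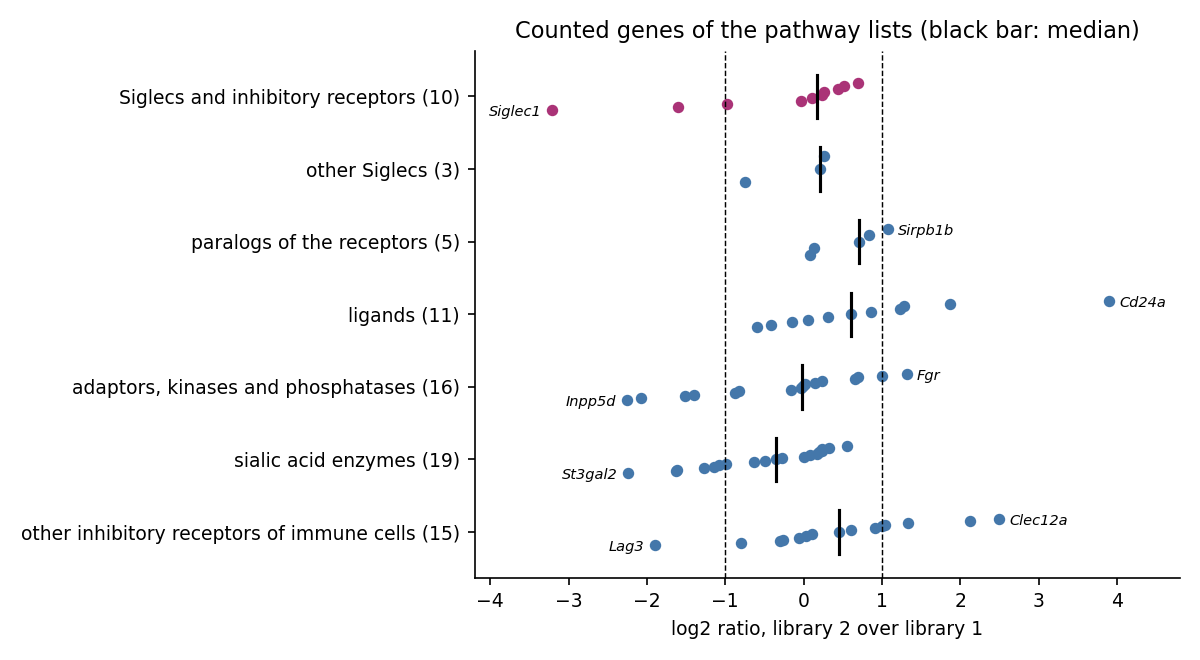
Log2 ratio of library 2 over library 1 for the counted genes of each list, with the number of genes in brackets, the list median (black bar) and 2-fold limits (dashed). The 10 Siglec, receptor and Cd47 genes are in purple; Siglec1 (−3.21) is the lowest point and Cd24a (3.89) the highest.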

How the data were processed

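RNA-seq counts were analysed for 2 sham libraries, grouped by their titles. Per the labels and the methods of the study, the authors made cDNA with the SMART-Seq HT Kit, sequenced paired 75-base reads, and used HISAT2 (GRCm38) for mapping and HTSeq for counting by Ensembl identifier. What was deposited is raw counts, without normalization. Versions, annotation release and strand setting are not given in the sources used here. This kit primes on the poly(A) tail, and the part of library preparation in the length trend between the libraries was not tested.

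Symbols, exons and transcripts came from GENCODE M21 (GRCm38), which matched 53706 of 53801 identifiers. The 10 members and all gene lists were chosen with earlier results of these data known. All 10 members were named, as were, for each pathway list, up to 4 genes chosen by level, by a ratio past 2-fold or by absence; a few more were named after their values were seen. A likeness of pattern between genes is not defined with 2 libraries. A gene was called counted if neither library had fewer than 10 counts. CPM were scaled to all counts on genes, and length-scaled levels to merged exon length. Intervals are exact (Poisson for levels, conditional binomial for ratios) at 95%, and cover counting error only, since amplified reads are not independent molecules. For the adjusted ratio, the median of genes in the same of 10 bins of GC content and 10 of length was subtracted, or that of the GC bin where fewer than 20 genes shared both. No test was run, because there was 1 group. The coefficient of variation was estimated with edgeR 4.0.16 (intercept only, TMM), and DESeq2 1.42.0 gave alternatives. Other software was Python 3.11.15 with pandas 2.3.3, matplotlib 3.10.9, scipy 1.17.1 and numpy 2.4.6, and R 4.3.3. Values of a few listed genes are not reported here. The scripts for ratios and spread were tested on simulated counts. Promoter sequences are from RefSeq (GRCm38.p6), which held 7 of the 10 members.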

Additional observations from a re-analysis of the deposited data

How the results depend on the processing

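No paired analysis was possible because both libraries belong to 1 group. With 2 libraries, leaving one out leaves the value of the other mouse, so it says nothing about stability. All 10 genes had at least 10 counts with either library left out (10 to 10 genes), and all 10 had at least 100 counts and at least 1 CPM in both. Siglec1 and Sirpa were the 2 genes past 2-fold under TMM (beside 28.5% of all counted genes) and under DESeq2 scaling (28.2%). They were also the 2 with totals that left out mitochondrially encoded genes (31.7%) and totals without markers of other cell types (30.1%). With no filter on low counts the same 2 were past it, beside 38.02% of 19207 genes. At a limit of 1.5-fold there were 4, with Siglece and Cd200r1 added, while 50.9% of all counted genes were past that limit. The adjustment for GC content and length gave 2, Siglec1 and Siglece, beside 22.4% of all genes. The median log2 ratio of all counted genes was −0.26 on the CPM scale, −0.01 with TMM and 0.01 with DESeq2 size factors. Under either of these 2 scalings the ratios of all 10 genes lay outside their counting intervals. With TMM and with DESeq2 size factors, Cd200r1 was at 0.94 and 0.97, Siglech at 0.76 and 0.79, and Siglece at −0.73 and −0.70. Of the adjustments, 3 more were chosen after seeing the data. Sirpa was at −1.11 with length alone, −1.32 with GC content alone, and −0.59 with GC content and the length of merged exons. For Siglec1 these were −2.25, −2.83 and −1.66, and for Siglece −1.14, −0.69 and −1.13. With length alone, Cd47 (1.40) and Lair1 (1.15) were also past 2-fold, higher in library 2, which made 5 genes past it. The share of all genes past 2-fold was not computed for that adjustment, so this count has no background beside it. With GC content and the length of merged exons, Cd47 was at 0.53 and Lair1 at 0.45. Of the neighbour pairs, 4 to 6 were separated across the alternatives, against 5 as reported. With the length of the longest transcript Cd33 came before Siglece. By CPM, which is not scaled for length, Cd33 also came before Havcr2, and Siglece came after Cd47. The biological coefficient of variation of 0.479 was 0.550 without the filter on low counts, 0.499 without TMM and 0.471 with DESeq2.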

Other observations

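Mag, a Siglec gene known from oligodendrocytes, had 1047 and 2210 counts (44.8 and 53.7 CPM). Per length its level was 31.3 and 30.2, above those of the oligodendrocyte genes Mbp (17.0 and 10.6), Mog (1.29 and 0.785) and Mobp (0.799 and 1.07) in both libraries. Cldn11 had 1 and 0 counts. Siglecf, known from eosinophils, had 36.3 and 41.8 CPM. Pdcd1, the gene of the T cell checkpoint receptor PD-1, had 250 and 356 counts (10.7 and 8.65 CPM), while the T or NK cell list gave no count for Cd3e in either library, 0 and 1 for Trbc2, 0 and 7 for Cd3g, 0 and 5 for Ncr1, 3 and 109 for Cd3d, and 37 and 527 for Nkg7. Cd274, which encodes the ligand PD-L1, had 13.2 and 10.9 CPM.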
